A study of Mus musculus with 23 samples.

Results

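The genes described here are 34 genes of meiosis, the piRNA pathway and the germ line, chosen by symbol for their known function. All were found among the 25124 genes of the deposited RNA table. They and the gene lists set beside them were chosen with earlier results of these data known. Their counts, set beside shares of all genes, therefore describe the chosen genes and test no excess. The study asked how the transcription factor BACH1 acts in mouse embryonic stem cells of the E14Tg2A line. RNA was sequenced from Bach1-KO cells (genotype Bach1 -/-, made with CRISPR/Cas9) and from wild-type (WT) cells, in 3 libraries each that the study calls biological triplicates. Both were grown in serum with leukemia inhibitory factor, and the RNA was poly(A) selected. The sample titles name no clone, so loss of BACH1 and other differences between the KO and WT lines cannot be told apart. Levels are given in TPM (a share of the library's transcripts corrected for length) for 1 transcript of each gene. This unit discards the number of reads, so the depth behind each value is unknown and no counting interval is given.

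Germ line genes make gametes. STRA8 and MEIOSIN switch cells into meiosis, cohesin and the synaptonemal complex fold and pair the chromosomes, SPO11 and DMC1 break and exchange DNA strands, and PIWI proteins with their tudor-domain partners use small piRNAs to silence transposons. Many germ line genes have CpG-rich promoters that are held silent in other cells by DNA methylation and, in embryonic stem cells, by a Polycomb complex called PRC1.6, in which MGA and MAX bind E-boxes and E2F6 binds E2F sites. Loss of PRC1.6 subunits or of DNA methylation is known to raise such genes in mouse embryonic stem cells.

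In Bach1-KO cells the germ line genes moved in both directions, with more of them higher than lower. All 3 KO values lay above all 3 WT values in 23 of the 34 genes, against 20.6% of all 25124 listed genes, and below them in 9, against 33.8% of listed genes. Mei1 and Tex15 were the 2 genes whose groups overlapped. The members' TPM summed to 438, 440 and 454 in the KO libraries, against 297, 304 and 303 in the WT libraries, so the KO sums were all higher, mostly through Rhox5, Tex19.1 and Syce2, which have the highest levels in KO cells. On the log2(TPM + 1) scale used for the test, the largest differences above 0 were those of Taf7l, Mael, Meioc and Ddx4 and the largest below 0 those of Stra8 and Dazl. By the ratio of mean TPM the order was Sycp2, Tdrd1 and Taf7l (31.8, 15.0 and 11.9), although Sycp2 and Tdrd1 had under 0.1 TPM in WT cells on average.

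**Figure D1:**
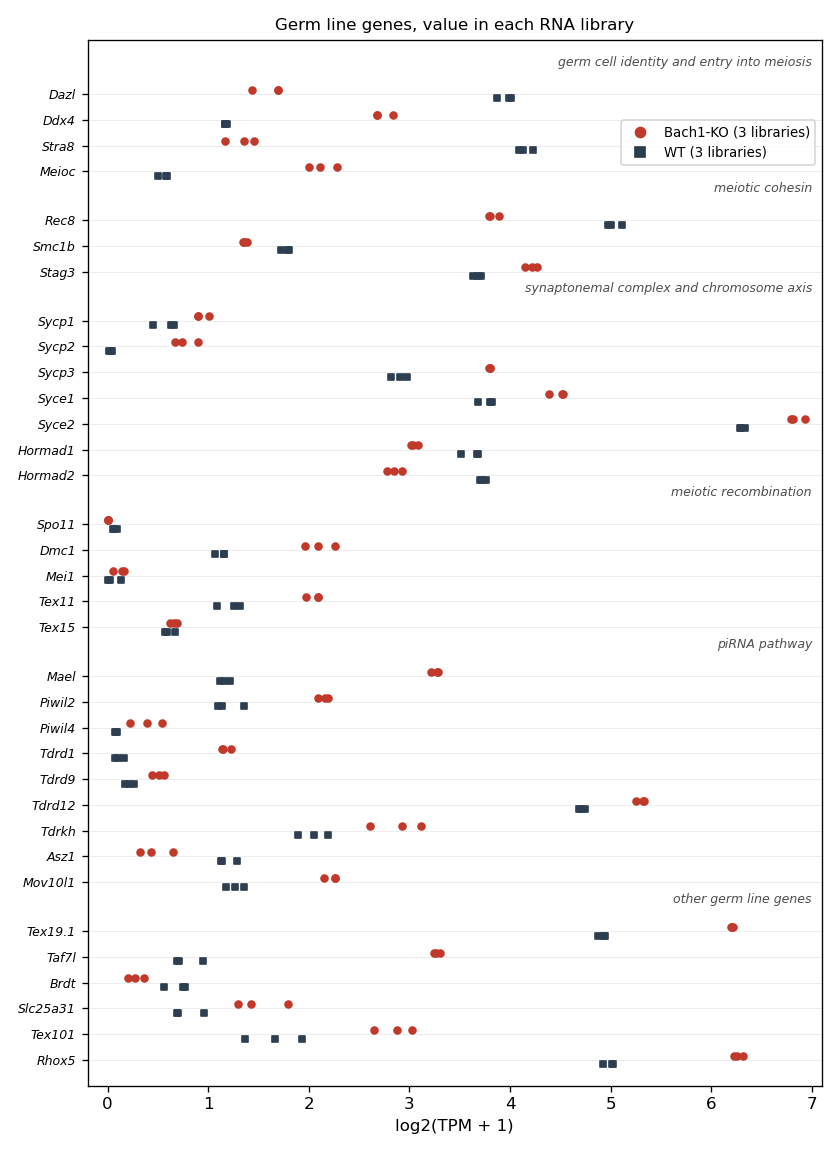
Each point is 1 RNA library, with log2(TPM + 1) on the horizontal axis and the 34 genes on the vertical axis, grouped by role; red circles are the 3 Bach1-KO libraries and dark squares, drawn below them, the 3 WT libraries. The red and dark points are apart in 32 of the 34 genes, and the red points lie to the right in 23 of them.

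The statistical comparison used limma on log2(TPM + 1), a scale that understates the change of genes at low TPM, among the 12196 genes that reached 1 TPM in 3 or more libraries. Of the 34 members 26 passed that filter, of which Meioc, Tdrd1, Taf7l and Slc25a31 passed through the KO libraries alone and Asz1 through the WT libraries alone, so these 5 could hardly fail to differ. The other 8 (Sycp1, Sycp2, Spo11, Mei1, Tex15, Piwil4, Tdrd9 and Brdt) were below it. At a Benjamini-Hochberg adjusted p of 0.05, 19 of the 26 were higher in KO, beside 28.3% of all genes tested, and 7 were lower, beside 54.8% of all genes tested. The median log2 difference of the 26, KO minus WT, was 0.83, and that of all genes tested was -0.20. The shift of all genes shrank to -0.03 after quantile normalization and to -0.02 after median-of-ratios scaling, and the direction and call of each of the 26 held under both. Without the filter 23 of the 34 were higher, beside 23.5% of 20190 genes, and 9 were lower, beside 39.5%. The authors' deposited table of transcripts higher in KO held 17 of the 34, beside 7.49% of listed genes, and their table of lower transcripts held 5, beside 10.0%. A bulk RNA value cannot tell fewer cells with a transcript from less transcript per cell.

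**Figure D2:**
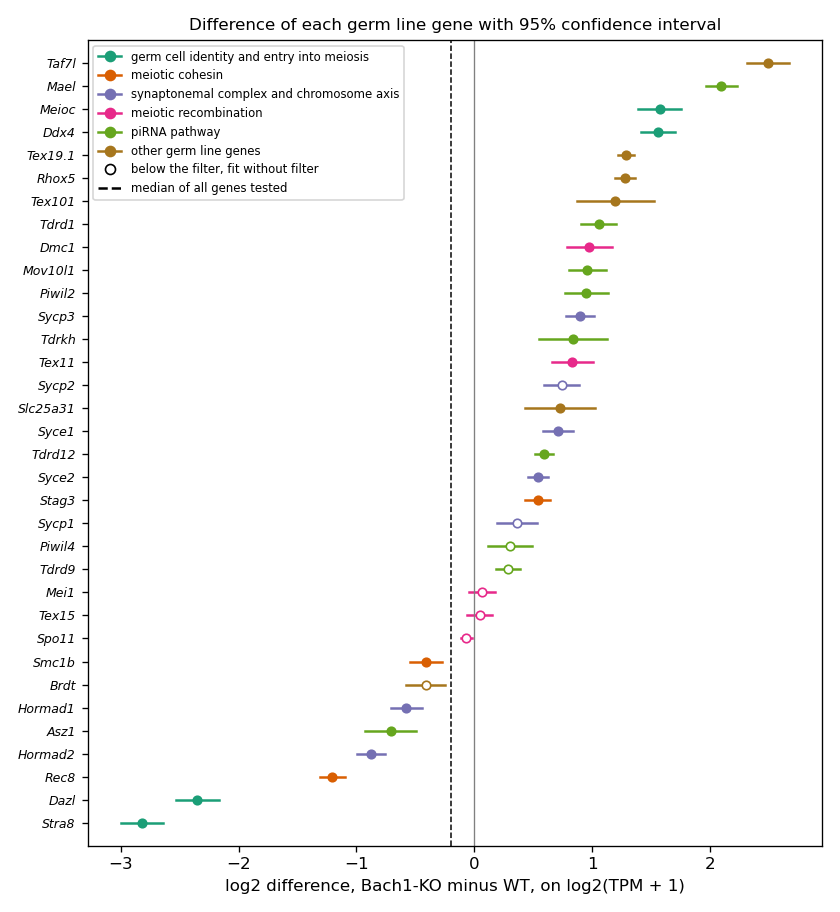
The horizontal axis gives the log2 difference, Bach1-KO minus WT, on log2(TPM + 1), with its 95% confidence interval from limma for each of the 34 genes, coloured by role; open circles are the 8 genes below the filter, taken from the fit without a filter, and the dashed line is the median of all genes tested at -0.20. Taf7l at 2.49 stands at the top and Stra8 at -2.82 at the bottom.

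Promoter sequences of 7 members are shown because they carry, or lack, the short motifs of the known silencing complex; they were picked with their motif content known, so the windows shown are no sample of the members. Meioc, Tex19.1, Rhox5, Tex101, Dmc1 and Rec8, whose log2 differences were larger in size than those of Sycp3 and Hormad1, hold no E-box in their windows and are not shown. Windows of 300 bases, 250 before and 50 after an annotated start, came from RefSeq on build GRCm38.p6 for 30 of the 34 genes, and Spo11, Tex11, Tex15 and Piwil2 had none. Capitals mark CACGTG (the E-box of MGA and MAX), GCGGGA or its reverse complement TCCCGC (an E2F-type site) and TGAGTCA (a core shared by BACH1 and AP-1 sites), searched on both strands with no overlap among them. The first 4 windows belong to genes higher in KO (Taf7l at chrX:134476441-134476740, minus strand, Mael at chr1:166238695-166238994, minus strand, Ddx4 at chr13:112652261-112652560, minus strand, and Sycp3 at chr10:88459337-88459636, plus strand). The last 3 belong to genes lower in KO (Hormad1 at chr3:95559427-95559726, plus strand, Dazl at chr17:50293571-50293870, minus strand, and Stra8 at chr6:34920698-34920997, plus strand).
Taf7l: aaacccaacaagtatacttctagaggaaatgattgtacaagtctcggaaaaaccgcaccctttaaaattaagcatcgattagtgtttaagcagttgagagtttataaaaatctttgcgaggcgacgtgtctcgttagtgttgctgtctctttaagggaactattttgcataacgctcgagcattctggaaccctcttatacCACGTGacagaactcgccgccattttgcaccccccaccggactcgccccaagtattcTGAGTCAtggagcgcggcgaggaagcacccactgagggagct
Mael: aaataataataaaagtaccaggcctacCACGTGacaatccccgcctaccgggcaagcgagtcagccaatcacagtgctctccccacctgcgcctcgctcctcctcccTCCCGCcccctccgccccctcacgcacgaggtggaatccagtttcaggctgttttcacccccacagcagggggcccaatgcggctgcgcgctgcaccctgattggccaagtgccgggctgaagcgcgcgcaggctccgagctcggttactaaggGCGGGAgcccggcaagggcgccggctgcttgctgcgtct
Ddx4: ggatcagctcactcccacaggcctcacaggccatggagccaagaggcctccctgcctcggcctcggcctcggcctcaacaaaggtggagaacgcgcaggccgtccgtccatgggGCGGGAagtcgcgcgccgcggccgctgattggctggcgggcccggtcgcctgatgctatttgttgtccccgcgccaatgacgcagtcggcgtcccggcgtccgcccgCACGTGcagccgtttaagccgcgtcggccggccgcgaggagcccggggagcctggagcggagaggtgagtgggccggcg
Sycp3: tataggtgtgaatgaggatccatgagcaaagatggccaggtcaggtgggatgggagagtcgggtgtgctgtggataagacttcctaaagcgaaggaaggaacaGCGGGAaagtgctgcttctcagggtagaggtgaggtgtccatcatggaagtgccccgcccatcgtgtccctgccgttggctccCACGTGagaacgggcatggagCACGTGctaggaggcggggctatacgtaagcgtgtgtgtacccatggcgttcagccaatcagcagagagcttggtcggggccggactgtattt
Hormad1: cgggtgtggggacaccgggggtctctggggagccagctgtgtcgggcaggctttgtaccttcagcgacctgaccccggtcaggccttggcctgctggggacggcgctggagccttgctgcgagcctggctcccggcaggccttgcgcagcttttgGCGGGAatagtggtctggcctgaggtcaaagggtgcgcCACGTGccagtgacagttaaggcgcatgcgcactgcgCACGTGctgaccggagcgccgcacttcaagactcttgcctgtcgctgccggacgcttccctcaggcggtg
Dazl: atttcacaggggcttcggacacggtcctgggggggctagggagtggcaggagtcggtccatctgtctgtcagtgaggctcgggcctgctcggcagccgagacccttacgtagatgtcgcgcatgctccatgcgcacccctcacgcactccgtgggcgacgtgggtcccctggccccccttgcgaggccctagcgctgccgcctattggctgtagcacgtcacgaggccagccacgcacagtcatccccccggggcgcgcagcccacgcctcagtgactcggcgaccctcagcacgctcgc
Stra8: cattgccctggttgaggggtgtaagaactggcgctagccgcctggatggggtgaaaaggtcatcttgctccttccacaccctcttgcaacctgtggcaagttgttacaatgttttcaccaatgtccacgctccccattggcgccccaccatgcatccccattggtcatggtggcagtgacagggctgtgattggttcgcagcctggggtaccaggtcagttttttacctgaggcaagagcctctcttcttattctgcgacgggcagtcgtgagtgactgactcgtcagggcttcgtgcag

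The E-box lay 49 bases before the start in Taf7l, 223 in Mael and 29 in Ddx4, while Sycp3 had 2, at 64 and 43 bases. Hormad1, lower in KO, also held 2 E-boxes, at 57 and 20 bases before the start. The windows of Dazl and Stra8 held none of the 3 motifs. Over the 30 genes with a window, 13 (43.3%) had an E-box in at least 1 window, beside 12.3% of the 9458 tested genes with a window and 8.09% of all 27025 genes with one. The E2F-type site was in 13 of the 30 (43.3%), beside 40.2% of tested genes and 22.0% of all genes. TGAGTCA was in 4 of the 30 (13.3%), Tex19.1, Taf7l, Brdt and Tex101, beside 4.29% of tested genes and 5.95% of all genes. By window, with nearly identical windows of 1 gene counted apart, the E-box was in 12 of 26 windows of genes higher in KO and in 3 of 9 windows of genes lower in KO. The observed over expected CpG ratio had a median of 0.708 in the members' 36 windows, 0.753 in windows of tested genes and 0.384 in all windows; it was 1.03 for Taf7l, 0.978 for Ddx4 and 0.78 for Mael, against 0.795 for Dazl and 0.43 for Stra8. These counts describe letters in a window and not occupancy, which was not analysed here for these promoters.

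**Figure D3:**
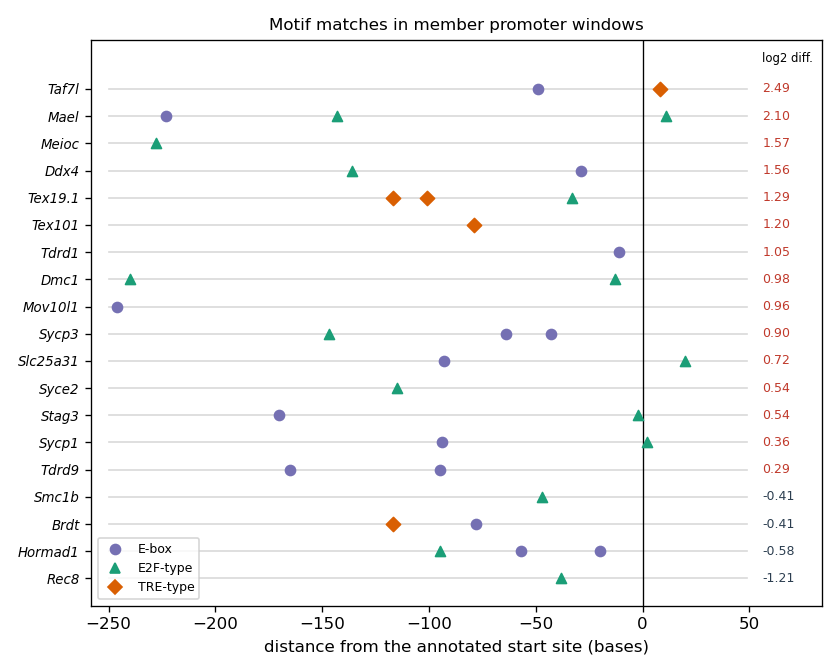
The horizontal axis is the distance in bases from the annotated start (vertical line), and each row is 1 of the 19 genes with any match, ordered by its log2 difference, Bach1-KO minus WT, printed at the right; circles are E-boxes, triangles E2F-type sites and diamonds TGAGTCA (TRE-type) matches, in the first listed window of each gene that has one. The E-box of Syce2 is in its other window and is not drawn; genes with an E-box stand in the upper and in the lower rows.

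Among genes of germ cell identity and entry into meiosis, 2 were higher and 2 lower in KO cells, beside 28.3% and 54.8% of all genes tested. Stra8, the retinoic acid-induced regulator that starts meiosis, had 1.25, 1.73 and 1.57 TPM in KO cells, against 16.5, 17.7 and 16.0 TPM in WT cells. The groups were far apart, and the WT mean was 11.03 times the KO mean (log2 difference -2.82, adjusted p = 3.03e-09). Dazl, an RNA-binding protein that germ cells need to develop, had 1.71, 2.23 and 2.23 TPM in KO cells, against 14.8, 15.1 and 13.6 TPM in WT cells. Its KO libraries were all low, and the WT mean was 7.07 times the KO mean (log2 difference -2.35, adjusted p = 9.37e-09).

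Ddx4, the mouse relative of the fly helicase Vasa and a classical germ cell marker, had 5.39, 5.40 and 6.14 TPM in KO cells, against 1.24, 1.28 and 1.24 TPM in WT cells. The KO values were all higher, by 4.50-fold in the means (log2 difference 1.56, adjusted p = 3.28e-08). Meioc, which keeps cells in meiotic prophase together with the RNA helicase YTHDC2, had 2.99, 3.85 and 3.33 TPM in KO cells, against 0.418, 0.509 and 0.496 TPM in WT cells. Its WT values were all under 1 TPM, and the KO mean was 7.15 times the WT mean (log2 difference 1.57). Meioc passed the filter through the KO libraries alone, so no adjusted p is given. Meiosin, the partner of STRA8, is listed under the symbol Gm4969 and was chosen for mention after its values were seen: it averaged 1.51 TPM in KO cells and 0.195 TPM in WT cells, and it too passed the filter through the KO libraries alone, so no test is given.

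Of the 3 meiotic cohesin genes, 1 rose and 2 fell, beside 28.3% higher and 54.8% lower of all genes tested. Rec8, the kleisin subunit that replaces RAD21 in meiosis, had 13.8, 12.9 and 12.9 TPM in KO cells, against 30.5, 31.2 and 33.5 TPM in WT cells. The KO values were all lower (log2 difference -1.21, adjusted p = 2.20e-08). Stag3, the meiotic STAG subunit, had 17.6, 18.3 and 16.7 TPM in KO cells, against 11.9, 11.4 and 12.1 TPM in WT cells. Here the KO values were all higher (log2 difference 0.54, adjusted p = 4.11e-06). Smc1b, the meiotic SMC subunit, averaged 1.57 ± 0.0397 TPM in KO cells and 2.42 ± 0.103 TPM in WT cells (SD, n = 3 each; limma log2 difference -0.41, adjusted p = 0.000138).

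The mitotic cohesin genes were measured beside them. Rad21, the kleisin of dividing somatic cells, averaged 25.4 TPM in KO cells and 37.2 TPM in WT cells and fell by 0.54 on the log2 scale (adjusted p = 2.55e-06). Smc3, shared by both kinds of cohesin, fell by 0.33. Smc1a fell by 0.25 with the values as deposited, but no longer passed after quantile normalization (adjusted p = 0.0785) or median-of-ratios scaling (adjusted p = 0.238). Stag1 had a difference of -0.17 as deposited and of 0.06 and 0.01 under the same scalings, so its direction depended on the scaling.

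The synaptonemal complex, the protein zipper between paired chromosomes, was grouped with the chromosome axis. Together they had 5 members with all KO values above all WT values and 2 with all below, beside 20.6% and 33.8% of listed genes. The 2 were Hormad1 and Hormad2 of the axis. Of the 5 that passed the filter, 3 were called higher and 2 lower, beside 28.3% and 54.8% of all genes tested. The axial core gene Sycp3 had 12.8, 12.9 and 12.9 TPM in KO cells, against 6.48, 6.05 and 6.87 TPM in WT cells. The KO values were all higher, by 1.99-fold in the means (log2 difference 0.90, adjusted p = 2.66e-07). Sycp2, the partner of SYCP3 in the axis, was below the filter with 0.591, 0.869 and 0.673 TPM in KO cells, against 0.033, 0.025 and 0.009 TPM in WT cells. All values were under 1 TPM, the KO mean was 31.8 times the WT mean, and the authors' deposited table gives a log2 fold change of 4.75 for it. Sycp1, the transverse filament that spans the zipper, was also below the filter, with a mean of 0.913 TPM in KO cells and 0.493 TPM in WT cells.

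Of the central element genes, Syce1 had 19.9, 21.9 and 22.1 TPM in KO cells, against 11.9, 13.0 and 13.1 TPM in WT cells. The groups did not overlap (log2 difference 0.71, adjusted p = 2.14e-06). Syce2 had 112, 110 and 121 TPM in KO cells, against 77.0, 79.9 and 77.7 TPM in WT cells, the highest level of any member in both genotypes. It was higher in KO (log2 difference 0.54, adjusted p = 1.09e-06), but its listed transcript is the noncoding record NR_031759 and the gene overlaps Gcdh, which averaged 16.4 TPM in KO cells and 34.02 TPM in WT cells. The HORMA-domain proteins of unsynapsed axes went the other way. Hormad1 had 7.20, 7.09 and 7.50 TPM in KO cells, against 10.4, 11.8 and 11.7 TPM in WT cells, and Hormad2 averaged 6.21 ± 0.381 TPM in KO cells and 12.2 ± 0.306 TPM in WT cells (SD, n = 3 each). Both were lower in every KO library (limma log2 differences -0.58 and -0.88, adjusted p = 1.11e-05 and 3.66e-07).

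The recombination genes were low in both genotypes. Dmc1, the meiosis-specific recombinase, had 3.79, 3.26 and 2.89 TPM in KO cells, against 1.24, 1.22 and 1.10 TPM in WT cells. Its KO values were all higher, by 2.79-fold in the means (log2 difference 0.98, adjusted p = 4.10e-06). Tex11, an X-linked gene needed for crossovers, averaged 3.14 ± 0.191 TPM in KO cells and 1.33 ± 0.185 TPM in WT cells (SD, n = 3 each; limma log2 difference 0.83, adjusted p = 6.72e-06). Spo11, the enzyme that makes the DNA breaks of meiosis, was listed at 0 in all 3 KO libraries and at 0.036, 0.067 and 0.046 TPM in the WT libraries. Mei1, needed for those breaks, and Tex15, needed to load recombinases onto them, had overlapping groups. Mei1 had at most 0.121 TPM in KO cells and 0.099 TPM in WT cells, and Tex15 averaged 0.573 TPM in KO cells and 0.525 TPM in WT cells.

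In the piRNA pathway all KO values lay above all WT values in 8 of the 9 members and below them in Asz1, beside 20.6% and 33.8% of all listed genes. Of the 7 members that passed the filter, 6 were called higher and 1 lower, beside 28.3% and 54.8% of all genes tested. Tdrd1 passed through the KO libraries alone and Asz1 through the WT libraries alone. Mael, a protein of the germ cell granule needed for transposon silencing, had 8.30, 8.74 and 8.67 TPM in KO cells, against 1.33, 1.22 and 1.17 TPM in WT cells. The groups were far apart, 6.91-fold in the means (log2 difference 2.10, 95% confidence interval 1.97 to 2.22, adjusted p = 2.53e-09). Tdrd1, a tudor-domain partner of PIWI proteins, had 1.35, 1.19 and 1.21 TPM in KO cells, against 0.120, 0.076 and 0.054 TPM in WT cells. The KO mean was 15.0 times a WT mean close to 0, and no adjusted p is given because Tdrd1 passed through the KO libraries alone.

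Piwil2, the PIWI protein MILI, had 3.47, 3.56 and 3.26 TPM in KO cells, against 1.14, 1.20 and 1.56 TPM in WT cells. Mov10l1, the helicase that feeds precursors into piRNA production, had 3.44, 3.78 and 3.78 TPM in KO cells, against 1.40, 1.26 and 1.55 TPM in WT cells. The KO values of both were all higher, with log2 differences of 0.95 and 0.96 (adjusted p = 3.46e-06 and 1.21e-06). Tdrkh, which anchors piRNA trimming at mitochondria, averaged 6.46 ± 1.30 TPM in KO cells and 3.14 ± 0.422 TPM in WT cells, and Tdrd12, needed for secondary piRNA production, 38.5 ± 1.12 TPM in KO cells and 25.2 ± 0.605 TPM in WT cells (SD, n = 3 each). Both were higher in KO by limma (log2 differences 0.84 and 0.59, adjusted p = 0.000213 and 3.41e-07). Piwil4, the nuclear PIWI protein MIWI2, and its partner helicase Tdrd9 were below the filter, with means of 0.313 and 0.418 TPM in KO cells and of 0.061 and 0.162 TPM in WT cells. Asz1, a scaffold on germ cell mitochondria, had 0.352, 0.247 and 0.571 TPM in KO cells, against 1.18, 1.43 and 1.19 TPM in WT cells. It was lower in every KO library (log2 difference -0.71). Asz1 passed the filter through the WT libraries alone, so no adjusted p is given.

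Of the 6 other germ line genes, the 5 that passed the filter were called higher, beside 28.3% of all genes tested. Taf7l and Slc25a31 passed it through the KO libraries alone. Brdt had all KO values below all WT values, beside 33.8% of all listed genes. Taf7l, the germ cell paralogue of the TFIID subunit TAF7, had 8.86, 8.48 and 8.60 TPM in KO cells, against 0.609, 0.931 and 0.638 TPM in WT cells. The KO mean was 11.9 times the WT mean (log2 difference 2.49), with no adjusted p given because of how it passed the filter. Of the promoter windows shown above, only that of Taf7l held both an E-box and TGAGTCA. The window of Brdt, which was lower in KO, also held both and is not shown. The somatic paralogue Taf7 averaged 19.6 TPM in KO cells and 32.0 TPM in WT cells (log2 difference -0.68, adjusted p = 3.71e-07). Of 19 somatic counterparts tested, 4 were higher and 12 lower, beside 28.3% and 54.8% of all genes tested. After median-of-ratios scaling 6 were higher and 6 lower, beside 4737 and 5025 of all 12196 genes tested. With the values as deposited, the higher ones were Mov10 (0.48), Ddx3x (0.37), Brd2 (0.35) and Pds5a (0.67). Mov10 and Ddx3x are relatives of Mov10l1 and Ddx4, which were higher too, while Brdt, the relative of Brd2, was lower.

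Tex19.1, a gene of placenta and germ cells that restrains retrotransposons, had 72.9, 72.2 and 73.1 TPM in KO cells, against 28.3, 29.6 and 29.7 TPM in WT cells. Rhox5, the founding X-linked reproductive homeobox gene, had 75.3, 74.0 and 78.4 TPM in KO cells, against 31.4, 31.4 and 29.3 TPM in WT cells. Both were among the highest members in each genotype, and their groups were far apart (log2 differences 1.29 and 1.28, adjusted p = 1.05e-09 and 3.80e-09). The relative Tex19.2, named after its values were seen, was also higher (log2 difference 0.69), and the sources used here do not say whether reads of these near copies were separated. Tex101, a surface protein of germ cells, averaged 6.25 ± 0.926 TPM in KO cells and 2.19 ± 0.620 TPM in WT cells (SD, n = 3 each; limma log2 difference 1.20, adjusted p = 4.30e-05). Slc25a31, the testis ADP/ATP carrier, averaged 1.87 ± 0.526 TPM in KO cells and 0.727 ± 0.189 TPM in WT cells (SD, n = 3 each). It passed the filter through the KO libraries alone, so no adjusted p is given. Of the somatic relatives of Slc25a31, Slc25a4 averaged 125 TPM in KO cells and 636 TPM in WT cells (log2 difference -2.33). Slc25a5 averaged 322.7 TPM in KO cells and 380.5 TPM in WT cells (log2 difference -0.24). By limma Slc25a5 passed after quantile normalization (adjusted p = 0.000229) but not after median-of-ratios scaling (adjusted p = 0.245). Brdt, the testis bromodomain protein, was below the filter with 0.215 TPM in KO cells and 0.620 TPM in WT cells.

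Levels per transcript length put Syce2, Rhox5, Tex19.1 and Tdrd12 at the top in KO cells, with means of 114, 75.9, 72.7 and 38.5 TPM. In WT cells the order was Syce2, Rec8, Rhox5, Tex19.1 and Tdrd12, with means of 78.2, 31.7, 30.7, 29.2 and 25.2 TPM. Rec8 and Rhox5 in WT cells overlapped between libraries (30.5 to 33.5 and 29.3 to 31.4 TPM), and so did Rhox5 and Tex19.1 (29.3 to 31.4 and 28.3 to 29.7 TPM). Stra8 and Dazl, at 16.7 and 14.5 TPM in WT cells, came next there, whereas in KO cells both lay near 2 TPM or below.

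Genes listed for the same or related processes outside the 34 moved in both directions. Of 24 other meiosis genes tested, 13 were higher and 10 lower, beside 28.3% higher and 54.8% lower of all genes tested, and their median log2 difference was 0.20, beside -0.20 for all genes. Of these, 3 passed the filter through the KO libraries alone and Aurkc through the WT libraries alone. Zcwpw1, a histone reader at meiotic break sites, averaged 52.4 TPM in KO cells and 8.59 TPM in WT cells (log2 difference 2.48, adjusted p = 3.84e-10), and Aurkc, the meiotic Aurora kinase, 0.548 TPM in KO cells and 28.6 TPM in WT cells (log2 difference -4.26). Fanci, a Fanconi anemia repair protein, fell by 0.75 on the log2 scale. Syce3, a central element gene named after its values were seen, averaged 11.8 TPM in KO cells and 1.73 TPM in WT cells (log2 difference 2.25).

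Of 17 genes tested in a broad list of other piRNA genes, 3 were higher and 13 lower, beside 28.3% and 54.8% of all genes tested. Of these 17, 1 passed the filter through the KO libraries alone and 1 through the WT libraries alone, so these could hardly fail to differ. The list median was -0.36, beside -0.20 for all genes tested. The list is not confined to the piRNA pathway and holds genes such as Nanos3, so it does not describe that pathway alone. Ddx25, a testis RNA helicase, rose by 1.43 on the log2 scale, while Snd1, a tudor nuclease, Morc1, a transposon silencer of male germ cells, and Nanos3, an RNA-binding protein of primordial germ cells, fell by 1.41, 0.91 and 1.90. This split depended on the scaling: 6 were higher and 8 lower after median-of-ratios scaling. Of 23 other germ cell genes tested, 8 were higher and 15 lower (median -0.43), beside the same shares of all genes. Among these 23, 2 passed the filter through the KO libraries alone and 2 through the WT libraries alone, with the same limit. Dppa3, the maternal factor STELLA, averaged 20.1 TPM in KO cells and 202 TPM in WT cells. Kit, the stem cell factor receptor, averaged 1.48 TPM in KO cells and 29.0 TPM in WT cells, and Tuba3a, a testis tubulin, and Ifitm3, the membrane protein Fragilis, fell by 1.90 and 1.17. In the Rhox cluster around Rhox5, 4 of 7 tested genes were higher and 2 lower (median 0.75), beside the same shares of all genes. Rhox2b passed the filter through the WT libraries alone. Rhox6, Rhox9 and Rhox13 had log2 differences of 2.86, 2.34 and 1.07 and Rhox2b one of -1.15, uncertain because the cluster holds near-identical copies.

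**Figure D4:**
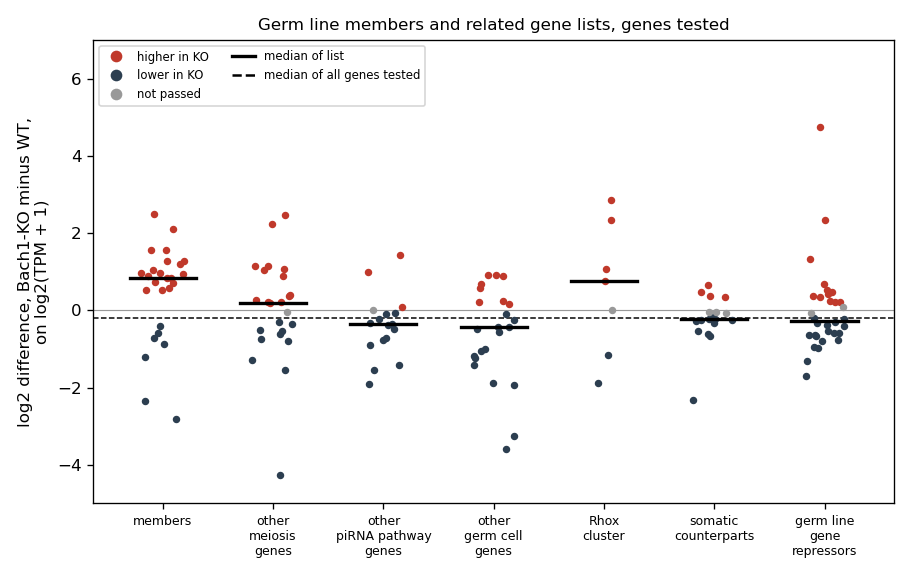
Each point is 1 tested gene, with its log2 difference, Bach1-KO minus WT, on the vertical axis and the gene list on the horizontal axis; red points were higher and dark points lower in KO by limma, grey points did not pass, black bars are list medians and the dashed line is the median of all genes tested at -0.20. The median was 0.83 for the members, 0.20 for other meiosis genes and -0.36 for the broad list of other piRNA genes.

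Known repressors of germ line genes were measured in the same libraries, and their part in the members' changes was not tested. Of 32 tested, 12 were higher and 18 lower, with a median of -0.26, close to the 28.3% higher, 54.8% lower and median of -0.20 of all genes tested. Pcgf6, the subunit that defines PRC1.6, had 22.2, 22.3 and 21.5 TPM in KO cells, against 27.2, 29.6 and 30.3 TPM in WT cells, all lower in KO (log2 difference -0.38, adjusted p = 3.42e-05). Max, E2f6 and L3mbtl2 of the same complex were higher, with log2 differences of 0.53, 0.21 and 0.21. Other listed genes whose products are found with PRC1.6 were lower. These were Cbx3 (-0.98), Wdr5 (-0.96), Hdac2 (-0.67), Rybp (-0.59), Hdac1 (-0.55) and Tfdp1 (-0.41). Yaf2 was lower as deposited (-0.19) but did not pass under either scaling (adjusted p = 0.916 and 0.761 by limma). Cbx1, also in the list, was higher (0.67). Mga did not pass (0.09, adjusted p = 0.145) with the values as deposited and was called higher after quantile normalization (adjusted p = 0.000406) and median-of-ratios scaling (adjusted p = 0.00105). Ring1, a catalytic subunit, was lower (-0.77), and Rnf2, the other one, was lower as deposited (-0.31) and after median-of-ratios scaling (adjusted p = 0.0352) but did not pass after quantile normalization (adjusted p = 0.0933).

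The DNA methylation genes were split. Dnmt3l, the cofactor of de novo methylation, averaged 461 TPM in KO cells and 16.2 TPM in WT cells, Dnmt3b 26.4 TPM in KO cells and 4.43 TPM in WT cells, and Dnmt3a had a log2 difference of 1.33. The maintenance genes were lower: Uhrf1 averaged 62.6 TPM in KO cells and 205 TPM in WT cells (log2 difference -1.70), and Dnmt1 had a log2 difference of -0.58. Setdb1, the H3K9 methyltransferase that also silences germ line genes, was lower (-1.32), while its corepressor Trim28 was higher (0.34).

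The libraries were checked once against their labels. Bach1 itself had 1.69, 1.76 and 2.05 TPM in KO cells, against 2.35, 2.50 and 2.70 TPM in WT cells, lower but not absent (log2 difference -0.31, adjusted p = 0.00282); the labels give no position for the Cas9 cut, and this RNA level neither checks nor contradicts the label. All 10 stem cell markers had at least 1 TPM in both genotypes, with sums of 6747 to 6901 TPM in KO libraries and 5258 to 5424 TPM in WT libraries. Most of that difference was Dppa5a, with means of 3701 TPM in KO cells and 2771 TPM in WT cells, and Utf1, with 491 TPM in KO cells and 38.6 TPM in WT cells. Pou5f1, Zfp42, Dppa4 and Sall4 were higher as well, and Pou5f1 averaged 1557 TPM in KO cells and 1232 TPM in WT cells. Nanog, Esrrb, Tdgf1 and Sox2 were lower, and Nanog averaged 116 TPM in KO cells and 306 TPM in WT cells. Of 12 markers from spermatogonia to spermatids 2 had a mean of at least 1 TPM in either genotype, 4 were at 0 in all libraries, Prm2 and Pgk2 among them, and the sums were 6.15 to 6.42 TPM in KO and 14.3 to 15.8 TPM in WT libraries, mostly Ldhc. Of 12 oocyte markers 3 reached that mean in KO and 2 in WT, with Oosp1 at 0, and sums of 11.5 to 13.4 TPM in KO and 30.1 to 36.6 TPM in WT libraries, mostly Zp3. Of 12 gonad somatic markers 2 reached it in KO and 1 in WT, with Fshr and Inhba at 0 (sums 5.48 to 5.83 TPM in KO and 3.22 to 3.77 TPM in WT), and of 10 fibroblast markers 1 in KO and 2 in WT, with Dcn, Postn and Col3a1 near 0 (sums 13.0 to 14.1 TPM in KO and 7.34 to 7.90 TPM in WT, mostly Thy1 in KO). The part of other cell types in the members' changes was not tested.

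No source used here states a strand setting, and 6 members overlap another protein-coding gene, so reads of such pairs may not be separated. Besides Syce2, these were Sycp3 with Chpt1 (4.84 TPM in KO cells and 7.48 TPM in WT cells), Smc1b with Fam118a (10.6 TPM in KO cells and 10.4 TPM in WT cells), Stag3 with Gpc2 and Gal3st4, Tdrkh with Oaz3 and Tdrd9 with Rd3l.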

How the data were processed

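Poly(A) RNA was measured in 3 Bach1-KO and 3 WT libraries. Per the submitters' processing notes, Trim Galore, HISAT2, HOMER, limma and build mm9 were used, with roles, versions, counting and strand setting not given in the sources used here. The authors deposited TPM per gene, with 1 transcript each, and lists of transcripts higher and lower in KO with each transcript's log2 fold change and p-value, whose pseudocount and adjustment are not given. The deposited TPM were put on the log2(TPM + 1) scale, and genes that reached 1 TPM in 3 or more libraries entered a linear model of genotype (limma 3.58.1 under R 4.3.3, empirical Bayes with trend), with Benjamini-Hochberg adjustment over 12196 genes and calls at 0.05, tested on simulated data first. The fit holds these 6 libraries only and no covariate. TPM keep no depth. The 34 members and the lists were chosen with earlier results of these data known. Named genes were all members, up to 4 genes per list with the smallest p, and any gene of the repressor and somatic counterpart lists. Gm4969, Syce3 and Tex19.2 were named after their values were seen, outside that rule. The level of 1 gene that this rule names is not reported here. Alternatives were other pseudocounts, filters and scalings, no trend, a block for replicate number, and each library left out. Promoters (RefSeq, GRCm38.p6) were searched with Python 3.11.15. The deposited ChIP peak lists are on mm9 and were not used here.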

Additional observations from a re-analysis of the deposited data

How the results depend on the processing

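The direction and call of each of the 26 members tested held under pseudocounts of 0.1 and 5, no filter, quantile normalization, median-of-ratios scaling, eBayes without trend, the replicate block and each library left out in turn, and those of the 12 members with a mean of at least 5 TPM held at that filter, where 7 were higher. At that filter 7621 genes were tested, of which 2112 were higher and 4430 lower, because fewer genes were tested; other meiosis genes then had 8 higher, other germ cell genes 4 higher and the Rhox cluster 0 lower. Without a filter the other piRNA genes had 5 higher and the Rhox cluster 4 lower. Over all genes, 4608 were higher and 5091 lower after quantile normalization and 4737 higher and 5025 lower after median-of-ratios scaling, beside 3446 and 6681 with the values as deposited. The other piRNA genes had 8 lower after quantile normalization, and 6 higher and 8 lower after median-of-ratios scaling; the somatic counterparts had 7 higher after quantile normalization and 6 lower after median-of-ratios scaling, and the cause of these moves was not tested. The replicate block called 3457 genes higher and 6692 lower and left the members at 19 and 7. The sources used here do not say whether equal replicate numbers mark a shared culture or day. Same-numbered KO and WT libraries had correlations of deviations of -0.00302, 0.0696 and -0.000791, which cannot settle that. With 1 library left out, 3322 to 3371 genes were higher and 6484 to 6532 lower. The depth is unknown, so values under 0.5 TPM, and ratios built on them, carry an unknown counting error. These include all values of Spo11, Mei1, Piwil4 and Tdrd9, the WT values of Sycp2 and Tdrd1 and the KO values of Brdt. The WT means of Meioc and Sycp1 and the KO mean of Asz1 were also under 0.5 TPM.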
